A study of Mus musculus with 8 samples.

Results

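Cystine uptake and glutathione synthesis were followed through 10 genes in cultured fetal mouse neural stem and progenitor cells with and without Kat7, which encodes a histone acetyltransferase. The genes were picked by name and matched to the table of gene counts by Entrez identifier, and all 10 of 10 were found among 27179 rows. They were proposed with results of the deleted against intact contrast already in view. Differences between the genotypes are therefore given as a description of these libraries, with no test of the 10.

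RNA came from neurospheres, floating clusters of dividing neural precursors, grown in proliferation medium from C57BL/6 fetuses at E14.5. The 4 Kat7 intact cultures were Kat7+/+ and the 4 Kat7 deleted cultures Kat7lox/lox, and both genotypes carried the NesCreT/+ Cre transgene, named for Nestin, an intermediate filament gene of neural precursors. Intact replicates 1 and 2 shared a litter, as did deleted replicates 3 and 4. The 6 litters split between the genotypes, 3 on each side, which means that an effect of litter cannot be told apart from one of genotype. Cells outside the reach of the Cre keep Kat7 in such a model.

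Libraries held 10687817 to 22444359 counts, at which 1 read was worth 0.0436 to 0.0918 CPM (counts relative to library size, which was adjusted by TMM for differing RNA composition). Intact libraries held 77.1 to 92.1 CPM of Kat7, against 26.4, 0.367, 13.9 and 0.0870 CPM for deleted replicates 1 to 4, so deleted replicates 1 and 3 still held Kat7 reads. Mitochondrial genes took 19.0% to 23.5% of intact libraries, against 29.9%, 19.0%, 17.1% and 34.4% of deleted replicates 1 to 4. All 12 neural stem and progenitor markers were detected, Prom1 only at 0.0634 to 1.19 CPM. Their summed level was 5811 to 6859 CPM over intact and 4009 to 7119 CPM over deleted libraries. The sum hides opposite moves: deleted replicate 1, the highest, held 3037 CPM of Slc1a3 but the least Nes and Vim of all libraries (831 and 1105 CPM). Of 13498 genes tested with edgeR's quasi-likelihood test, 1066 (7.90%) were called at an adjusted p under 0.05, 688 higher and 378 lower in deleted cultures. Kat7 itself was not called (log2 fold change -3.02, edgeR adjusted p = 0.128), though every deleted library lay below every intact one. With scaling by total counts alone the calls were 309 higher and 364 lower, and the median gene shifted from 0.05 to -0.09 on the log2 scale.

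Glutathione is a tripeptide of glutamate, cysteine and glycine that serves cells as their main small thiol antioxidant. Cysteine is its scarce building block. It enters as cystine, its oxidised dimer, through the exchanger made of SLC7A11 (xCT, the transport subunit) and SLC3A2 (CD98, the heavy chain that carries it to the membrane), or is made from homocysteine by CBS and then CTH, the transsulfuration route. GCLC, the catalytic subunit, and GCLM, the modifier subunit, join glutamate and cysteine, and GSS adds glycine. GPX1 spends glutathione on peroxides, GSR returns the oxidised form to the reduced one, and CHAC1 breaks glutathione down inside the cell. Many of these genes are known targets of NRF2, a factor of the oxidant response, or of ATF4, a factor of the amino acid response.

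Upstream sequence was available for 7 of the 10 genes in RefSeq for GRCm38.p6, and the 250 bases before the start were searched for a motif of each factor. The antioxidant response element core, which NRF2 binds with small MAF proteins, was written TGACNNNGC, and the amino acid response element, which ATF4 binds, TGATGCAA. Both strands were searched, the motifs share no overlap in these windows, and capitals mark the matches. The windows with a match are shown. Of these 3 genes Slc7a11 differed most between genotypes, Gclm less and Chac1 little. The windows are chr3:50443614-50443863 on the minus strand for Slc7a11, before a start that lies inside the annotated span of the gene, chr3:122245307-122245556 on the plus strand for Gclm and chr2:119350992-119351241 on the plus strand for Chac1.
Slc7a11: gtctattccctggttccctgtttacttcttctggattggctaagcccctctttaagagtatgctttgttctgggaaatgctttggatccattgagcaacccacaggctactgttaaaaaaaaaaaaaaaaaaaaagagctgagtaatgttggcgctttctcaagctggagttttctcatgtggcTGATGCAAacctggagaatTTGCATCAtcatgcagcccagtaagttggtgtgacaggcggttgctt
Gclm: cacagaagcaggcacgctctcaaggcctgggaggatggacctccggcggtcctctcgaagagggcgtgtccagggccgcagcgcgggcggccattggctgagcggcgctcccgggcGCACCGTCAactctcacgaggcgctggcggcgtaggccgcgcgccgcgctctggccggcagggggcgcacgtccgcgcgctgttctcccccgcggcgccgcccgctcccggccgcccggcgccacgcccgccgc
Chac1: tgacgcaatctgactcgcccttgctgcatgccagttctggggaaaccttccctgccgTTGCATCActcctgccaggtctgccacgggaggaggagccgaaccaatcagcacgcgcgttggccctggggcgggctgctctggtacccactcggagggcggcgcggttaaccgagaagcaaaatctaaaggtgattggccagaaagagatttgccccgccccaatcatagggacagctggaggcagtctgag

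Slc7a11 held 2 matches to TGATGCAA, on opposite strands, from 66 to 59 and from 47 to 40 bases before the start. Chac1 held 1, from 193 to 186 bases before its start on the minus strand. Gclm held a single match to TGACNNNGC, from 134 to 126 bases before the start and also on the minus strand of the gene. The letters TGATGCAA occurred in 0.791% and TGACNNNGC in 10.2% of 32851 windows of the same length. The windows of Slc3a2, Cbs, Gss and Gpx1 held neither motif. That of Slc3a2, like that of Slc7a11, lies inside the annotated span of the gene. The start of the Slc3a2 window was not found in the reference transcripts, so it may not be the promoter in use. The windows of Gclm and Cbs lie in part inside the annotated span of their genes. A window with no match says only that these letters are absent from the 250 bases searched, and a match is not evidence of binding.

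Of the 10 genes, Slc7a11, Cbs and Gclm were called higher and 0 lower, and for these 3 alone the lowest deleted library exceeded the highest intact one. Across all tested genes 5.10% were called higher and 2.80% lower. The genotypes did not overlap for 19.9% of them, with deleted libraries above for 10.7% and below for 9.21%. Nothing is read from the comparison of those shares, because the contrast had a part in the choice of genes. The median log2 fold change was 0.31 for the 10 genes and 0.05 for all tested genes. All 10 genes passed the filter on low counts, and 8 had a fitted fold change above 0. Each value that follows comes from a bulk culture, in which a change in the number of cells of a type and a change in RNA per cell cannot be told apart.

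Levels can be set beside each other between genes only per length, as RPKM (CPM per kilobase of the deposited gene length). In intact cultures Gpx1 stood highest at 93.0 ± 12.2 RPKM (SD, n = 4, as for all errors of levels here), followed by Slc3a2 at 57.8 ± 2.14 and Gsr at 42.4 ± 1.27. Gclc stood at 29.2 ± 3.95 RPKM, Gclm at 15.2 ± 0.340 and Gss at 8.55 ± 0.549. Slc7a11 was seventh in that order at 5.28 ± 0.626 RPKM, below its partner Slc3a2 and below every gene of the synthesis steps. Cth (3.43 ± 1.08 RPKM) and Chac1 (2.88 ± 0.937) overlapped each other, Slc7a11 and Cth overlapped in their ranges, and Cbs was the lowest of the 10 at 0.809 ± 0.346. The other neighbours in the intact order did not overlap.

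**Figure D1:**
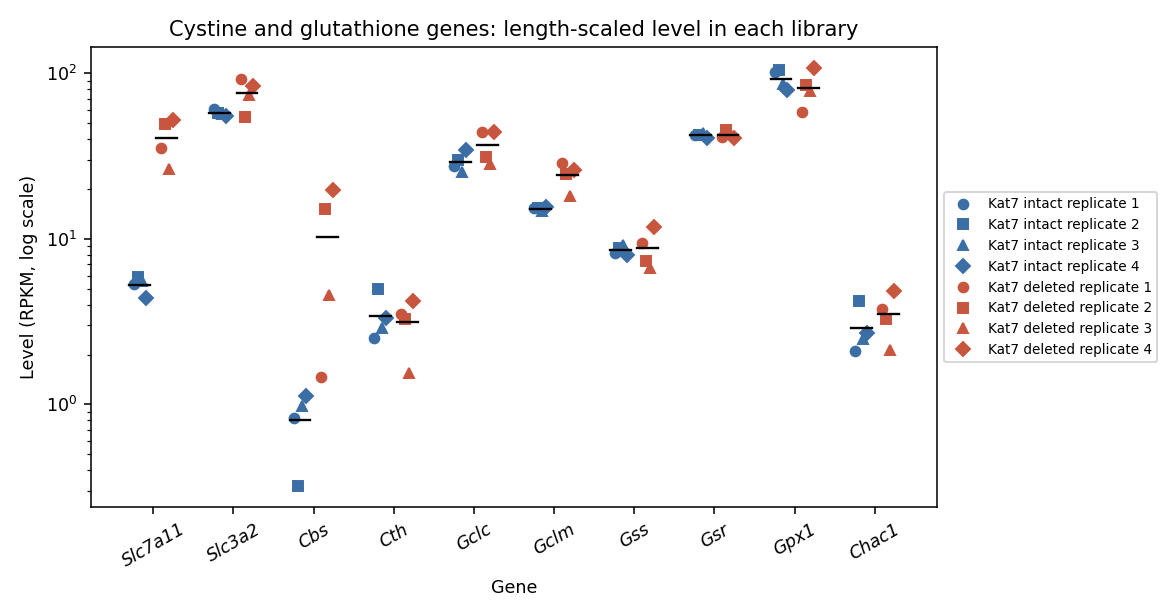
Length-scaled level (RPKM, log axis) of each of the 10 genes in every library, with blue for Kat7 intact, red for Kat7 deleted, 1 marker shape per replicate number and a black line at the mean of 4 libraries. Slc7a11, Cbs and Gclm have all red points above all blue ones, while the points of Gsr lie together near 42 RPKM.

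In deleted cultures the order changed mainly through Slc7a11 and Cbs. Slc7a11 reached 40.8 ± 12.1 RPKM, a level that overlapped those of Gsr (42.7 ± 2.07) and Gclc (37.0 ± 8.47). Among the tested genes its mean level stood above 39.8% of genes in intact and above 88.4% in deleted cultures. Cbs passed Gss and stood at 10.2 ± 8.61 RPKM, with single libraries from 1.47 to 19.7. Gpx1 (81.9 ± 20.3 RPKM) and Slc3a2 (76.3 ± 16.4) stayed at the top with overlapping ranges.

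Slc7a11 (Entrez 26570, chromosome 3, 50364936 to 50499087) encodes the subunit that exchanges extracellular cystine for glutamate. Intact replicates 1 to 4 held 49.0, 53.9, 51.4 and 40.6 CPM. Deleted replicates 1 to 4 held 328, 455, 243 and 481 CPM, so the lowest deleted library stood far above the highest intact one. The ratio of the means was 7.73 and the log2 fold change 2.95 ± 0.24 (approximate standard error from the edgeR fit). Leaving out any 1 library kept the value between 2.81 and 3.11, and the gene was called in 19 of 19 alternative settings. The deleted libraries differed 1.98-fold among themselves and the intact ones 1.33-fold.

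Slc3a2 (Entrez 17254, chromosome 19, 8706882 to 8723369), the heavy chain shared by several amino acid exchangers, did not follow its partner in size. Intact libraries held 179, 171, 168 and 164 CPM in replicate order. Deleted libraries held 274, 161, 219 and 249 CPM, so 3 lay above every intact library and deleted replicate 2 lay below them all. The log2 fold change was 0.40 ± 0.17, and the gene was not called. Without deleted replicate 2 the value was 0.53 and the gene was called, and without deleted replicate 1 it was 0.29. The length-scaled ratio of Slc3a2 to Slc7a11 was 11.4, 9.89, 10.2 and 12.6 in intact and 2.60, 1.10, 2.82 and 1.61 in deleted replicates 1 to 4. Slc3a2 thus had the higher length-scaled level in every library, but by little in deleted replicate 2.

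**Figure D2:**
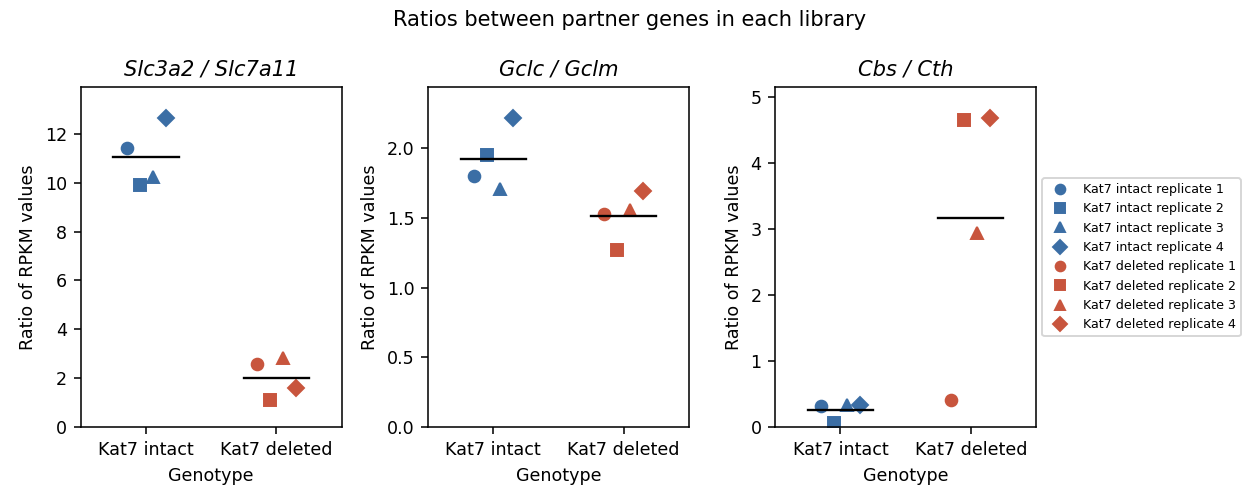
Ratios of RPKM values between partner genes in each library (y axis, from 0), with blue for Kat7 intact, red for Kat7 deleted and a black line at the mean of 4 libraries. The ratio of Slc3a2 to Slc7a11 runs from 9.89 to 12.6 in intact and from 1.10 to 2.82 in deleted libraries, and in the ratio of Cbs to Cth deleted replicate 1 lies beside the intact libraries at 0.417.

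Cbs (Entrez 12411, chromosome 17, 31612623 to 31637233), cystathionine beta-synthase, opens the transsulfuration route. It stood at 2.00, 0.777, 2.35 and 2.70 CPM in intact replicates 1 to 4, from 28, 13, 48 and 62 reads. In deleted replicates 1 to 4 it stood at 3.55, 36.7, 11.1 and 47.6 CPM, from 56, 400, 202 and 547 reads. The genotypes did not overlap, but deleted replicate 1 lay only just above intact replicate 4, and the deleted libraries spanned 13.4-fold. The log2 fold change was 3.64 ± 0.80. It was 1.89 and no longer called with deleted replicates 2 and 4 left out, and leaving out deleted replicate 4 alone gave 3.11 with no call. The call was also lost without any 1 of the 4 intact libraries, with values from 3.38 to 3.82. Calls over all tested genes fell in those settings too, from 1066 to between 189 and 261.

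Cth (Entrez 107869, chromosome 3, 157894248 to 157925081), the lyase that releases cysteine at the end of the same route, showed no such difference. Its intact values were 4.56, 8.97, 5.18 and 6.02 CPM and its deleted values 6.34, 5.88, 2.80 and 7.57 CPM. The deleted values lay within the intact range apart from deleted replicate 3, which was the lowest library, and the log2 fold change was -0.14 ± 0.35. Its sign turned without intact replicate 2 (0.10) or deleted replicate 3 (0.09). The length-scaled ratio of Cbs to Cth ran from 0.0646 to 0.337 over intact libraries, against 0.417, 4.66, 2.95 and 4.68 for deleted replicates 1 to 4. Cbs transcripts were therefore the scarcer of the pair in intact cultures and in deleted replicate 1, and the more abundant in the other 3 deleted cultures.

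Gclm (Entrez 14630, chromosome 3, 122245487 to 122267215), the modifier subunit of glutamate-cysteine ligase, had the smallest spread of the 10 genes over intact cultures, an SD of 0.03 in log2 CPM. Intact libraries held 22.5, 22.5, 21.7 and 22.9 CPM. Deleted libraries held 42.5, 36.3, 26.6 and 38.4 CPM, all above the intact ones, with deleted replicate 3 nearest to them. The ratio of the means was 1.61 and the log2 fold change 0.68 ± 0.15. It kept its call without deleted replicate 1, 2 or 3 (0.59 to 0.81), and lost it without deleted replicate 4 (0.65) or any 1 intact library (0.67 to 0.68). With scaling by total counts the value was 0.53 and the gene was not called. RefSeq places a lncRNA, Gm46822, across the 5′ end of Gclm and a pseudogene, Gm6061, inside it, neither of which is a row of the table.

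Gclc (Entrez 14629, chromosome 9, 77754535 to 77794489), the catalytic subunit, overlapped between genotypes. Intact libraries held 94.2, 102, 86.3 and 118 CPM and deleted libraries 152, 107, 96.7 and 152 CPM, with a log2 fold change of 0.34 ± 0.18. Deleted replicates 1 and 4 were above every intact library, and deleted replicates 2 and 3 were inside the intact range. The length-scaled ratio of Gclc to Gclm ran from 1.71 to 2.21 over intact libraries and was 1.53, 1.27, 1.56 and 1.70 in deleted replicates 1 to 4. The lowest intact ratio lay just above the highest deleted one.

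Gss (Entrez 14854, chromosome 2, 155563181 to 155592810), glutathione synthetase, measured 15.3, 16.3, 17.1 and 14.8 CPM in intact replicates 1 to 4, against 17.6, 13.7, 12.4 and 21.7 CPM in deleted ones. Deleted libraries lay on both sides of the intact ones and their mean was nearly the same, with a log2 fold change of 0.04 ± 0.19 whose sign changed in 8 of 19 settings. The lncRNA gene Gssos2 overlaps Gss and is not a row of the table, so without a stated strand setting its reads and those of Gss cannot be told apart.

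Gsr (Entrez 14782, chromosome 8, 33653238 to 33698162), glutathione reductase, hardly varied. Its values were 114, 113, 117 and 109 CPM without deletion and 110.2, 121, 116 and 109 CPM with it, in replicate order, a spread of 1.08-fold and 1.11-fold. The log2 fold change was 0.01 ± 0.10. With scaling by total counts it was -0.13, close to the value of -0.09 for the median gene under that scaling.

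Gpx1 (Entrez 14775, chromosome 9, 108339080 to 108340342), the abundant glutathione peroxidase of the cytosol, measured 106, 109, 90.6 and 82.7 CPM in intact replicates 1 to 4, against 60.7, 88.2, 81.2 and 112 CPM in deleted ones. The lowest and the highest library were both deleted ones, replicates 1 and 4. The log2 fold change of -0.19 ± 0.19 did not reach a call, and it was -0.05 without deleted replicate 1.

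Chac1 (Entrez 69065, chromosome 2, 119351242 to 119354326), which cleaves glutathione and is a textbook ATF4 target, measured 3.28, 6.64, 3.91 and 4.23 CPM in intact replicates 1 to 4, against 5.90, 5.14, 3.35 and 7.57 CPM in deleted ones. The genotypes overlapped and the log2 fold change was 0.28 ± 0.32. Without deleted replicate 4 it was 0.08. Its counts were low, from 46 to 111 reads a library. Chac1 and Cth had the same libraries at their extremes within each genotype: intact replicate 2 was highest and intact replicate 1 lowest, deleted replicate 4 was highest and deleted replicate 3 lowest. This shared order over 8 libraries is given as a description.

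**Figure D3:**
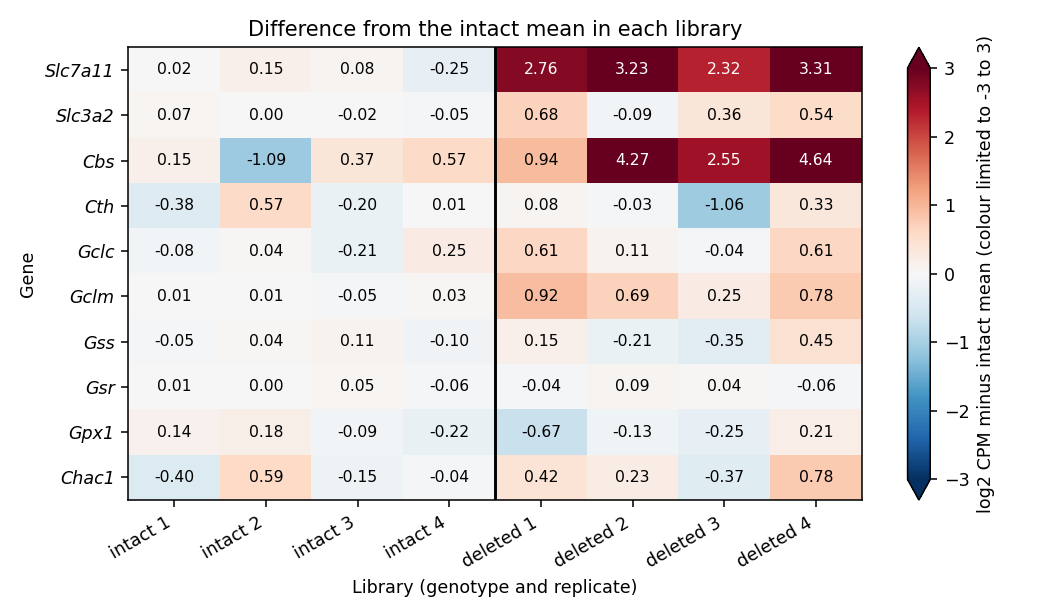
Difference of each gene from its intact mean in each library, in log2 CPM with a prior count of 2 (rows are genes, columns are libraries, red is above and blue below, colour limited to -3 to 3). Slc7a11 lies at 2.32 to 3.31 in all 4 deleted libraries, Cbs ranges from 0.94 to 4.64, and Gsr stays within 0.09 of its intact mean.

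Deleted cultures varied more among themselves than intact ones in each of the 10 genes. The SD of log2 CPM was 0.03 to 0.74 over intact and 0.07 to 1.70 over deleted libraries, with Cbs highest in both. Littermates could also lie far apart. Deleted replicates 3 and 4, from a single litter, held 243 and 481 CPM of Slc7a11, 11.1 and 47.6 of Cbs, 96.7 and 152 of Gclc and 12.4 and 21.7 of Gss. For 9 of the 10 genes deleted replicate 4 was above its littermate, Gsr being the exception. The intact littermates, replicates 1 and 2, were close for Slc7a11 (49.0 and 53.9 CPM), Gclm and Gsr, and apart for Cth (4.56 and 8.97), Chac1 (3.28 and 6.64) and Cbs (2.00 and 0.777).

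Several features of the deleted libraries moved with these genes. Slc3a2, Gclc, Gclm, Gss, Cth and Chac1 were each highest, among deleted libraries, in replicates 1 and 4, where mitochondrial genes took the largest share of counts. With that pair left out the log2 fold change was 0.13 for Slc3a2, 0.00 for Gclc (0.003 before rounding), 0.47 for Gclm, -0.31 for Gss, -0.55 for Cth and -0.12 for Chac1, and Gclm was no longer called. Slc7a11 and Cbs kept their calls there, at 2.82 and 3.56. Cbs followed another order: it was highest in deleted replicates 4 and 2, which held the fewest Kat7 reads. It came next in replicate 3 and was lowest in replicate 1, which held the most. Slc7a11 was also highest in deleted replicates 4 and 2, at 481 and 455 CPM, but was lowest in replicate 3, at 243 CPM. The summed level of mesenchymal markers was 5.71, 783, 22.6 and 242 CPM in deleted replicates 1 to 4, so it too was highest in replicates 2 and 4. With the pair holding Kat7 reads left out, the values were 4.41 for Cbs and 3.26 for Slc7a11. The part of the mitochondrial share, of remaining Kat7 reads and of mesenchymal markers in these differences was not tested.

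**Figure D4:**
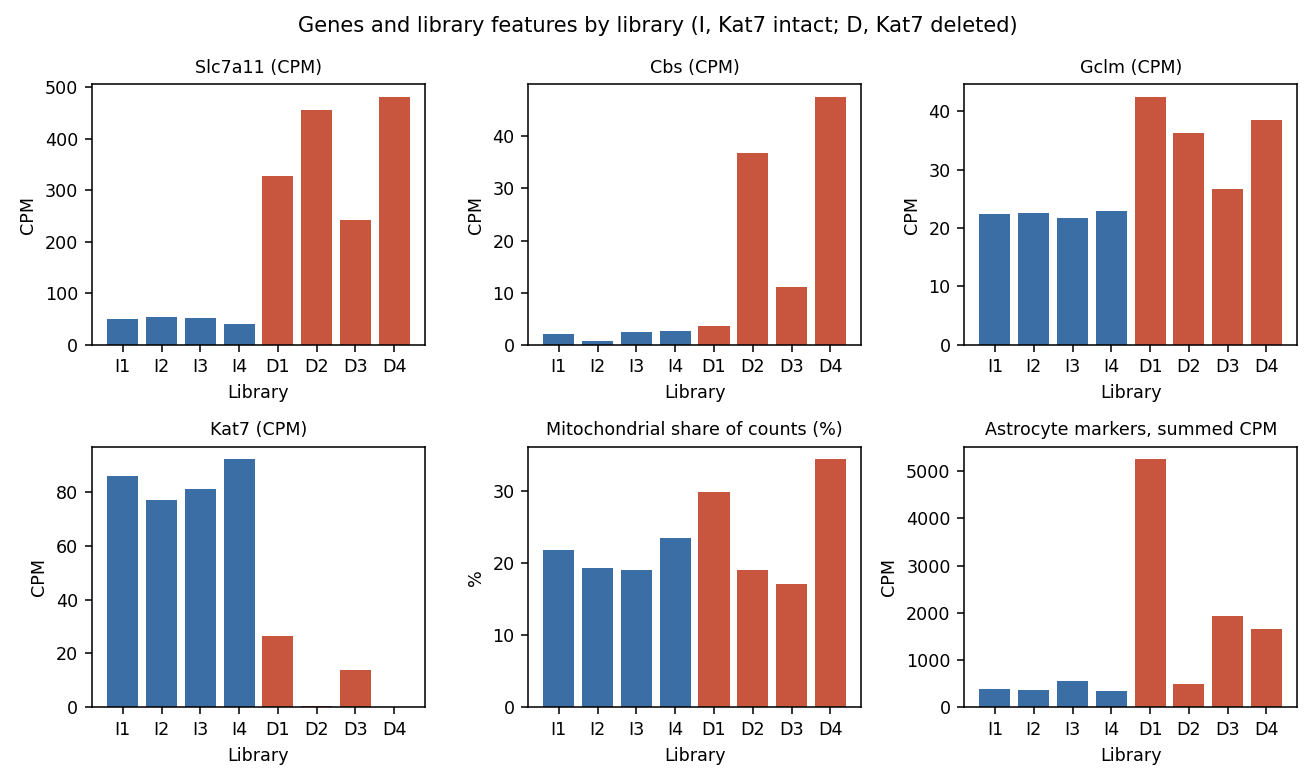
Bars from 0 for each library (I, Kat7 intact; D, Kat7 deleted; blue and red) of Slc7a11, Cbs, Gclm and Kat7 in CPM, the mitochondrial share of counts in percent, and the summed CPM of 9 astrocyte markers. Cbs is high in D2 and D4, where Kat7 is at 0.367 and 0.0870 CPM, and Slc7a11 is highest in the same libraries. The mitochondrial share is high in D1 and D4. D2 and D4 also had the highest mesenchymal marker sums, which are not drawn.

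Markers of other cell types differed between the cultures too. Of 9 astrocyte markers 4 were called higher and 0 lower: Aqp4, a water channel, Aldoc, an aldolase, and Clu and Sparcl1, both secreted proteins. Aqp4 kept its call in 19 of 19 settings, while Aldoc, Clu and Sparcl1 lost theirs without any 1 intact library and with litter as a random block. Their summed level was 336.9 to 561 CPM over intact libraries, against 5250, 503, 1938 and 1657 CPM for deleted replicates 1 to 4, and 0 of the 9 were at 0 in all libraries. In deleted replicate 2, where Slc7a11 was at 455 CPM, the sum lay inside the intact range, but most of it was Sparcl1 (294.7 CPM). Aqp4 was at 15.1 CPM there, against at most 1.91 CPM over intact libraries, and Aldoc, Clu, Gfap and Aldh1l1 were also above every intact library. S100b, Slc1a2 and Gja1 went the other way in that library, below every intact one, at 3.03, 5.3 and 14.7 CPM. Of 9 mesenchymal markers 2 of 3 tested were called higher, Acta2 and Thbs2, and both lost the call without any 1 intact library or deleted replicate 4 and with litter as a random block. The summed level was 3.03 to 4.37 CPM over intact libraries, against 5.71, 783, 22.6 and 242 CPM for deleted replicates 1 to 4. In deleted replicate 2 the untested markers Col3a1, a fibrillar collagen, and Dcn, decorin, reached 333.5 and 84.1 CPM, and neither passed 0.359 CPM in any other library. Col1a1, Col1a2, Lum and Pdgfrb were under 1 CPM on average in both genotypes. With deleted replicates 2 and 4 left out, the pair with the highest mesenchymal sum, Slc7a11 was at 2.55 and still called. Cbs was at 1.89 there and not called.

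Of 8 neuronal markers 2 of 6 tested were called lower, Neurod1 and Elavl3. The summed level was 18.0 to 23.3 CPM over intact libraries, against 9.95, 116, 6.48 and 8.61 CPM for deleted replicates 1 to 4. The high value of deleted replicate 2 was mostly Dcx, a microtubule protein of young neurons, at 100.6 CPM against at most 1.27 CPM elsewhere, and Rbfox3 and Snap25 were highest there too (8.17 and 4.96 CPM). The same library was the lowest of all for Tubb3, Neurod1 and Elavl3 (1.38, 0.0918 and 0.551 CPM). Syt1 was at 0 there and in deleted replicate 4. Oligodendrocyte lineage markers had 2 of 6 tested lower, Ugt8a and Gpr17, with sums of 600.2 to 716 and 256 to 694 CPM. Gpr17 lost its call without any 1 intact library or deleted replicate 3 or 4, and Ugt8a without intact replicate 1, 3 or 4 (adjusted p up to 0.0546 by edgeR). Microglial markers summed to 2.84 to 3.71 and 0.459 to 2.35 CPM. Of these 8 markers 7 stayed under 1 CPM in every library, with C1qa at 0 throughout. P2ry12, the only 1 tested, was most of the sum over intact libraries and was not called (edgeR adjusted p = 0.205). Endothelial markers summed to 3.27 to 6.94 and 1.65 to 15.7 CPM. Kdr, at most 1.14 CPM in any library, was called lower, though not without intact replicate 2 (edgeR adjusted p = 0.0501). Tek, the other of 2 tested, had a log2 fold change of 0.69 and was not called. It held 13.9 CPM in deleted replicate 2, most of the highest sum. The part of these cell types in the differences of the 10 genes was not tested.

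Other genes of cystine, cysteine and glutathione metabolism moved in both directions. The list held 67 genes, of which 51 were tested, 4 were called higher and 3 lower, 13.7% against 7.90% of all tested genes. Their median log2 fold change was 0.12, against 0.05 for all tested genes. Only Gpx4 kept its call without any 1 intact library. The other 6 lost theirs whichever intact library was left out, so that 1 gene of 52 or 53 tested was then called. Over all tested genes the calls fell in the same settings from 1066 to between 189 and 261, so this loss was not particular to the list.

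Transporters outside the xCT pair had 1 higher and 1 lower of 9 tested. Mfsd12, which is needed for cysteine import into lysosomes and melanosomes, rose from 7.34, 7.06, 6.60 and 6.85 CPM to 12.7, 11.5, 14.3 and 16.4 CPM, with no overlap. Its log2 fold change was 0.98 ± 0.17 with an edgeR adjusted p of 0.0143, which reached 0.0648 without intact replicate 4. Slc1a1, a glutamate carrier that also takes up cysteine, fell from 6.91, 3.47, 4.60 and 8.37 CPM to 2.09, 1.29, 1.48 and 0.435 CPM. Its log2 fold change was -2.12 ± 0.47 with an edgeR adjusted p of 0.0327 (0.100 without intact replicate 4, and lost without deleted replicate 3 too). Slc7a5, another partner of SLC3A2 that carries large neutral amino acids, stood at 269 ± 14.2 and 245 ± 76.5 CPM and was not called.

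In the methionine cycle and other cysteine metabolism 1 of 16 was called. Ado, a thiol dioxygenase, fell from 96.1, 100.3, 97.3 and 97.6 CPM to 80.0, 70.9, 75.0 and 60.6 CPM, with every deleted library below every intact one (log2 fold change -0.45 ± 0.11, edgeR adjusted p = 0.0455). Without intact replicate 2 the adjusted p was 0.141, and the call was also lost without deleted replicate 3 or 4. Glutathione breakdown outside CHAC1 had 0 of 6 called by edgeR, with 2 at an unadjusted p under 0.05, Ggct below 0 and Oplah above 0. Its most abundant member was Lap3, an aminopeptidase, at 106 ± 7.40 and 128 ± 38.9 CPM.

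Among the other glutathione peroxidases 1 of 4 was called. Gpx4, which reduces lipid peroxides in membranes and guards against ferroptosis, rose from 6.77, 6.22, 8.80 and 7.07 CPM to 19.2, 14.2, 14.8 and 18.8 CPM. Its log2 fold change was 1.21 ± 0.18 with an edgeR adjusted p of 0.00945, at most 0.0473 with 1 library left out and 0.0630 with littermates summed. RefSeq lists pseudogene copies of Gpx4, which can take reads from it, so its level is uncertain. Among glutaredoxins and other glutathione-dependent steps 2 of 10 were called. Slc25a39, the mitochondrial glutathione importer, rose from 137 ± 15.6 to 209.7 ± 11.6 CPM (0.62 ± 0.12 on the log2 scale, edgeR adjusted p = 0.0226). Hagh, a hydrolase that returns glutathione from its lactate ester, rose from 21.4 ± 2.72 to 32.7 ± 4.59 CPM (0.61 ± 0.15, edgeR adjusted p = 0.0406).

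Their calls were lost without any 1 intact library, with adjusted p up to 0.0858 for Slc25a39 without intact replicate 1 and 0.127 for Hagh without intact replicate 2, and that of Hagh without deleted replicate 3 or 4 as well.

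**Figure D5:**
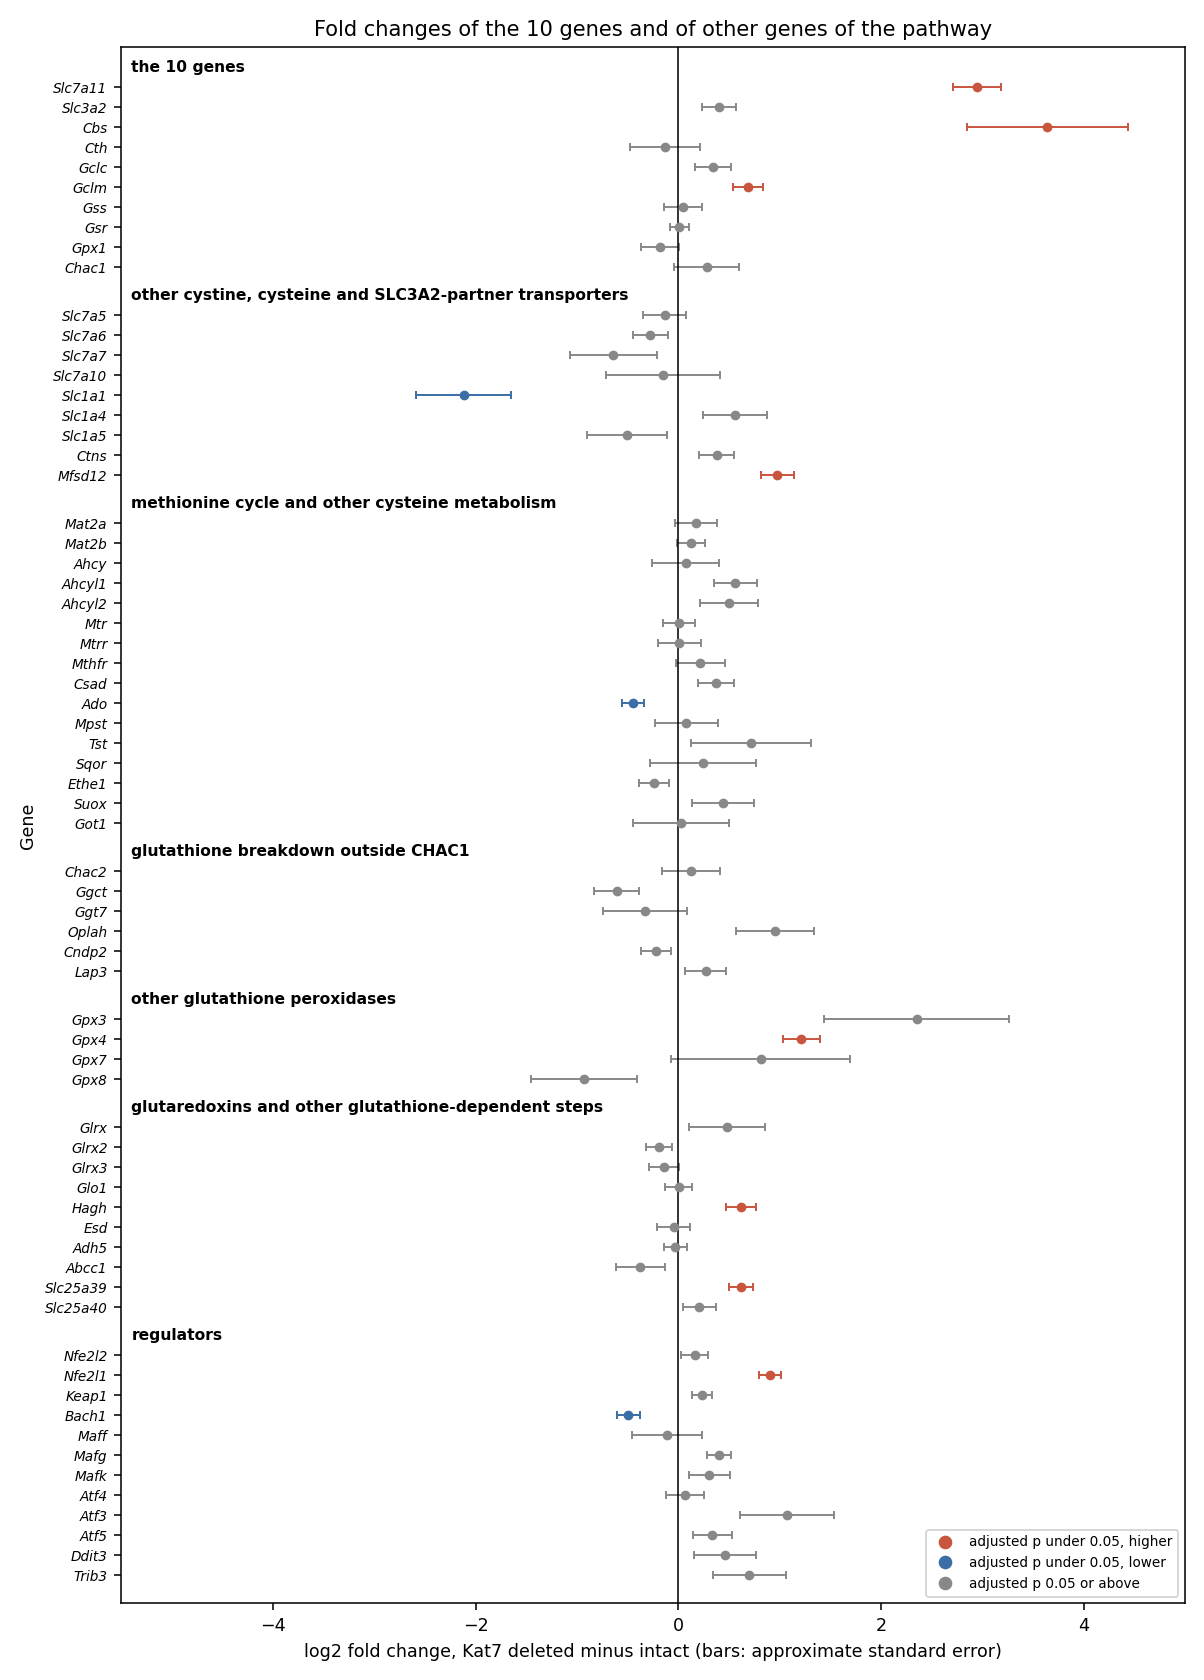
Log2 fold change (x axis, Kat7 deleted minus intact) of the 10 genes, most of the other pathway genes tested and the regulators, with bars of 1 approximate standard error and colours for genes called higher, called lower or not called. Slc7a11 at 2.95 and Cbs at 3.64 lie farthest to the right, and the bar of Cbs is the wider of the pair.

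Of 12 genes for regulators of the oxidant and amino acid responses 1 was called higher and 1 lower. Nfe2l1, a relative of NRF2 that controls proteasome genes, rose from 108, 101, 111 and 91.1 CPM to 193, 182, 188 and 203 CPM, with narrow and separate groups. Its log2 fold change was 0.90 ± 0.11 with an edgeR adjusted p of 0.00592, and it was called in 19 of 19 settings. Bach1, a heme-binding repressor that competes for the antioxidant response element, fell from 50.8, 48.7, 50.3 and 59.8 CPM to 39.7, 34.5, 39.7 and 34.7 CPM. Its log2 fold change was -0.50 ± 0.12 with an edgeR adjusted p of 0.0376, rising to 0.0996 without intact replicate 2. The call was lost without any 1 intact library and without deleted replicate 3 or 4.

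NRF2's own gene, Nfe2l2, stood at 120.5 ± 16.3 CPM without and 135 ± 12.1 CPM with the deletion, with overlapping libraries and an edgeR adjusted p of 0.476. Its inhibitor gene Keap1 stood at 43.1 ± 1.18 and 50.5 ± 3.52 CPM, with deleted libraries all above intact ones, and missed the threshold (edgeR adjusted p = 0.182). Atf4 stood at 103 ± 8.45 and 107 ± 28.0 CPM, and the ATF4 targets Ddit3 and Trib3 at 7.92 ± 1.13 and 10.9 ± 4.59 CPM and at 4.49 ± 1.16 and 7.30 ± 3.56 CPM, none of them called. These 5 genes were singled out after their values were seen, as the factors and targets named above. Transcript levels do not measure the activity of factors such as NRF2 or ATF4, which are controlled largely at the level of protein.

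The genes whose profile lay nearest to Slc7a11 over the 8 libraries were found among 10495 tested genes with a mean of at least 5 CPM. Likeness was the root-mean-square difference of log2 CPM after each gene was centred on its own mean. Nqo1, a quinone reductase, was nearest at 0.23, with 8.05, 5.56, 6.99 and 4.71 CPM in intact replicates 1 to 4, against 50.8, 48.1, 33.3 and 61.7 CPM in deleted ones. Plec, the cytoskeletal linker plectin, followed at 0.26, and Kank4, an adaptor of adhesion sites, at 0.28. Like Slc7a11, both Nqo1 and Plec were lowest among the deleted libraries in replicate 3 and highest in replicate 4. That likeness follows in part from how the genes were picked, and nothing is read from it.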

How the data were processed

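Per the labels' protocols, polyadenylated RNA libraries from 8 neurosphere cultures were sequenced single-end at 100 bp. The values the authors deposited are raw counts per Entrez gene, beside a gene length. The tools CASAVA 1.8.2 and featureCounts and the build mm10 come from the submitters' processing notes. For aligner, annotation and strandedness the entry is "not given in the sources used here". Symbols, coordinates and promoter windows came from RefSeq tables (GRCm38.p6, which is mm10) by Entrez identifier (25275 of 27179 matched).

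The test was that of edgeR 4.0.16 (R 4.3.3): filterByExpr with a minimum count of 10, TMM, robust dispersions and the quasi-likelihood F test over 13498 genes, 4 libraries against 4, with Benjamini-Hochberg adjustment and a threshold of 0.05. Standard errors are approximate: the size of the log2 fold change divided by the root of F. RPKM divides CPM by the deposited length. Log2 CPM uses a prior count of 2. The labels name separate fetuses, some of them littermates, and p-values measure the spread between these cultures. The main fit treats littermates as independent, while the limma-voom fit with a litter block gave a consensus correlation of 0.408 within litters. The printed p-values and standard errors may therefore be too small. The model was tested on simulated counts, where it recovered planted changes only in part, so a gene that was not called is not shown to be unchanged.

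The 10 genes, the lists, the motifs and the rules were chosen with earlier results of these data known. The naming rule took the 10 genes, Kat7, from each list up to 4 called genes by p or else the most abundant, and the 3 genes nearest to Slc7a11. The text gives a selection of the marker genes it named. A gene that the rule named among the other pathway genes is not reported here, though the counts of calls include it. Alternatives were total-count and RLE scaling, no filter, DESeq2 1.42.0, limma-voom (limma 3.58.1) with and without a random litter block, littermates added together, a block for the replicate number, and omission of each library in turn. Leaving out 3 pairs of deleted libraries was added after the values were seen. Precision is limited by 4 libraries from 3 litters a side and, for Cbs, Cth and Chac1, by low counts.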

Additional observations from a re-analysis of the deposited data

How the results depend on the processing

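Slc7a11 kept its direction and its call in all 19 alternatives, from 2.55 to 3.26 on the log2 scale. Cbs and Gclm kept their direction in all 19 and their call in 8 each, with ranges of 1.89 to 4.41 and 0.47 to 0.81. Over all genes the 1066 calls became 673 with scaling by total counts, 2200 with DESeq2, 414 with litter as a random block, 193 with littermates summed, 2299 without deleted replicates 1 and 3, and 2046 without deleted replicates 2 and 4. With 1 intact library left out they ran from 189 to 261, and with 1 deleted library left out from 755 to 2182. Of the 10 genes 3 were called, against 1 with litter as a random block and 1 with littermates summed, and 1 to 4 with 1 library left out. Of the other pathway genes 7 were called, against 3 with scaling by total counts, 3 with litter as a random block, 12 without deleted replicates 1 and 3, and 1 to 9 with 1 library left out. With littermates summed edgeR called 0 of them, with 11 at an unadjusted p under 0.05, while DESeq2 on all libraries called 9. The cause of these moves was not tested, and some settings also held fewer samples.

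Replicate numbers were shared between genotypes, but deviations of same-numbered libraries correlated at 0.0961, 0.221, 0.110 and 0.331 for replicates 1 to 4 and only replicates 2 and 4 correlated best with their own number, so the numbers were not taken as a pairing. With the replicate number as a block 319 genes were called in all, 1 of the 10 genes (Slc7a11) and 1 of the other pathway genes.

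Small differences changed sign. Gss, at 0.04, was -0.12 with scaling by total counts, -0.006 with limma-voom, -0.025 with litter as a random block, -0.012 with littermates summed, -0.31 without deleted replicates 1 and 4 and -0.082 without deleted replicates 2 and 4, and from -0.12 to 0.16 with 1 library left out. Gsr, at 0.01, was -0.13 with scaling by total counts, -0.007 with RLE and with DESeq2, -0.021 with no filter, -0.002 without deleted replicates 2 and 4, and from -0.033 to 0.032 with 1 library left out. Cth, at -0.14, ran from -0.31 to 0.10 with 1 library left out and was 0.12 without deleted replicates 1 and 3, where Gpx1 was 0.041. Without deleted replicates 1 and 4 Chac1 was -0.12 and Vim, a marker of neural precursors, 0.033 in place of -0.20. Depth limits the low counts of Cbs, Cth and Chac1.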

Other observations

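Some pathway genes were too low for the test and were picked out after their values were seen. Slc7a8, a light chain that pairs with SLC3A2, stood at 0.0713, 0.0598, 0.196 and 0.218 CPM in intact replicates 1 to 4, against 0.571, 5.51, 0.604 and 1.04 CPM in deleted ones. Ggt5, a gamma-glutamyl transferase, reached 5.05 CPM in deleted replicate 2 and at most 0.783 CPM in any other library. Anpep, an aminopeptidase of the cell surface, reached 5.51 CPM in deleted replicate 2 and at most 0.220 CPM elsewhere. Deleted replicate 2 was the highest library for all 3, which follows in part from how they were picked. Cdo1 and Dpep1, also untested, were highest there too. Ggt1, Ggt6 and Slc3a1 were highest in deleted replicate 1, and Glrx5 in deleted replicate 4. Deleted replicate 2 also had the highest mesenchymal marker sum, and nothing is read from that match.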
